A study of Arabidopsis thaliana with 6 samples.

Results

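Cotyledons of the Arabidopsis thaliana mutant sicy-192 had lower signals than wild-type cotyledons at 109 probe sets whose signal stayed near that level with GUN1 mutated too. These 109, out of 22746 probe sets that are not array controls, were chosen by measured values alone. Each was at least 1 lower on the log2(signal + 16) scale in both mutant genotypes than in wild type, and the mutants lay less than 0.5 apart. The mean over the 3 genotypes had to be at least 6 on that scale. Genes with a lower-case plastid symbol (psa, psb, pet, atp, ndh, rpl, rps, rpo or rbcL) were left out, which removed 1 probe set, psbB. Plastid genes with another symbol or no listed gene would not be removed by this. The gene table used here gives 67 of the 109 a single gene, each a different one, 1 of them several genes and 41 no gene. The 67 named genes all lie on chromosomes 1 to 5, while the genome that encodes the other 42 is unknown here.

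Biotin-labelled RNA from 4-day-old cotyledons of ecotype Col-0 was hybridised to 1-colour Affymetrix arrays, 2 arrays for each of 3 genotypes, called biological replicates in the labels. Seedlings were wild type, carried sicy-192 alone, or carried it together with gun1-101 (called the double mutant), and all grew on MS medium with 100 mM sucrose. They were lit for 16 h at 25 °C, with 100 µmol of light a square metre each second, and kept dark for 8 h at 22 °C. The labels give 1 line for each mutant genotype and do not say whether replicates were raised separately, so the spread between arrays may be partly technical. A gun1-101 single mutant was not analysed here. Of GUN1 and the plastid invertase gene, 0 had a named probe set, so neither genotype could be checked through its mutated gene.

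The sicy-192 allele is known as a gain-of-function mutation of a plastid invertase, an enzyme that splits sucrose, and its cotyledons turn yellow on sugar. GUN1, a plastid protein of the pentatricopeptide repeat family, passes signals on the plastid's state to the nucleus. In plants with damaged plastids, nuclear photosynthesis genes are commonly turned down, and loss of GUN1 is known to relieve part of that repression. The genes described here are those that stayed low in these cotyledons without functional GUN1.

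In all, 703 probe sets without such a plastid symbol and above the same level had a sicy-192 level at least 1 below that of wild type. Of these, 487 were less than 1 below wild type in the double mutant. Besides the 109, the rest held 72 that were 0.5 or more higher in the double mutant than in sicy-192. Another 35 were 0.5 or more lower there. Of the 703, 246 were at least 1 higher in the double mutant than in sicy-192, a count that overlaps the 487 and the 72. The 109 members made up 15.5% of the 703 and 18.9% of the 576 that were at least 1 lower in the double mutant. They form the band along the diagonal in the plot of both differences.

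**Figure D1:**
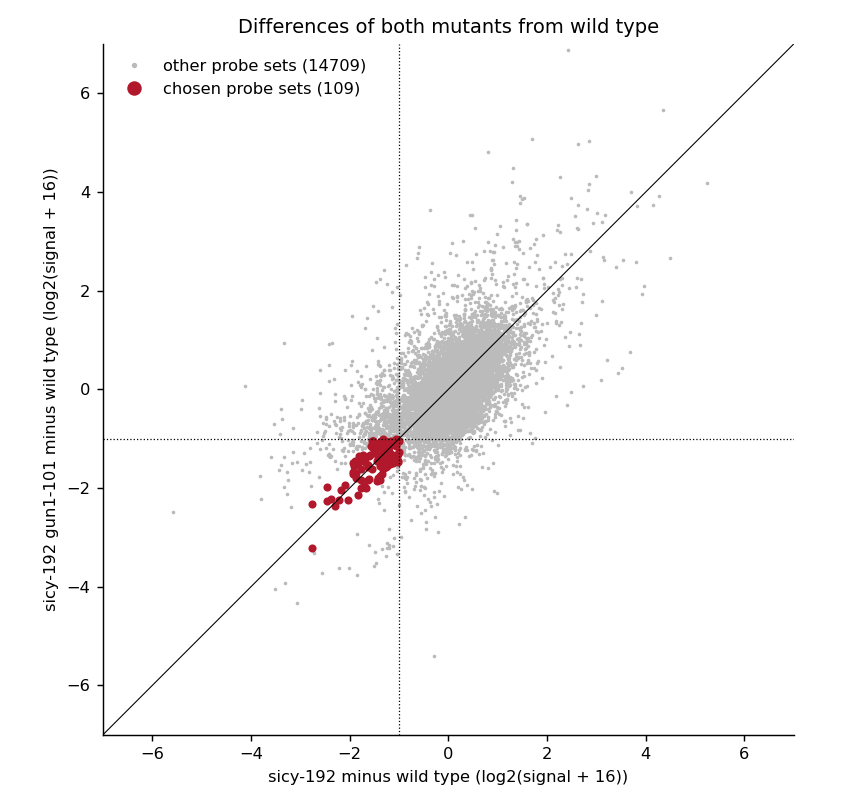
Each point is a probe set without a plastid symbol and with a mean level of at least 6. The x axis gives sicy-192 minus wild type and the y axis sicy-192 gun1-101 minus wild type, both in log2(signal + 16). The 109 chosen probe sets (red) lie near the diagonal below -1 on both axes (dotted lines), among 14709 others (grey), since the rule placed them there.

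The members' median difference from wild type was -1.40 in sicy-192 (from -2.77 to -1.0) and -1.34 in the double mutant (from -3.21 to -1.0). Over all tested probe sets these medians were 0.16 and 0.07. Relative to them the members' medians were -1.56 and -1.41. A member kept between 13.0% and 49.4% of its wild-type signal in sicy-192, with a median of 34.6%. In the double mutant the share ran from 8.93% to 50.1%, with a median of 35.4%. In wild type the members' signals ranged from 94.9 to 20879 with a median of 1004, against 361 over all tested probe sets.

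Both wild-type arrays exceeded all 4 mutant arrays for 107 of the 109 members, against 13.5% of all tested probe sets. For 53 they did so by at least 2-fold, against 0.825%. The rule used the same arrays, so these counts only describe the members. In limma's fit to all 6 arrays, adjusted over 14785 tested probe sets, sicy-192 had 98 members called lower and the double mutant 101, at an adjusted p under 0.05. Lower calls made up 9.21% and 12.8% of all tested probe sets in these comparisons, and nothing can be read from the members' excess. The filter on dim probe sets passed 105 members, while AT2G36690, AT3G20450, AT3G22060 and 246310_at fell under it. The exceptions among the arrays were EXLB1, described below, and 247718_at, which has no listed gene. The latter gave 1140 and 64.5 in the wild-type arrays, 364 and 6.80 in sicy-192, and 91.6 and 42.0 in the double mutant. On the log2 scale its replicates in wild type and in sicy-192 lay further apart than its differences from wild type (-1.71 and -1.95).

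**Figure D2:**
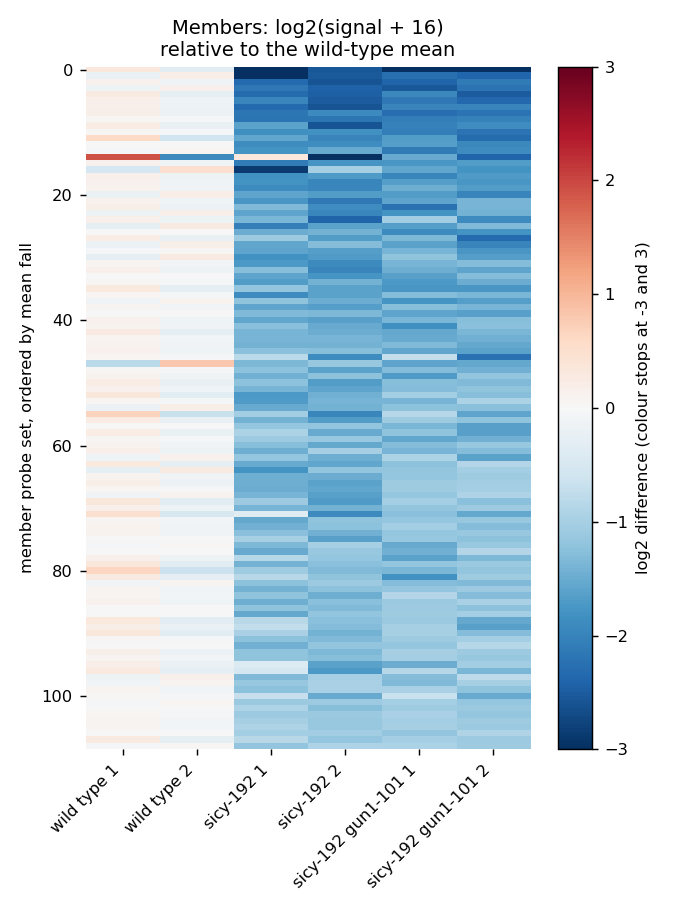
Rows are the 109 members ordered by their mean difference from wild type, columns the 6 arrays, and colour the log2(signal + 16) value relative to the mean of the wild-type arrays. The 4 mutant columns are blue (lower) apart from sicy-192 replicate 1 of 247718_at, whose wild-type arrays also differ most in colour; colours stop at -3 and 3.

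Mutant arrays were also set against the wild-type array of the same replicate number. The rule used the means of these same arrays, so the direction was largely set in advance. Shares over all tested probe sets were not counted, and the counts only describe the members. Within replicate 1, all 109 members were below wild type in both mutants, 100 by at least 1 in sicy-192 and as many, 100, with gun1-101 added. Within replicate 2, again all 109 were below wild type in both, 101 and 84 of them by at least 1. All 4 differences reached 1 for 67 members.

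Genes for the chloroplast's photosynthetic apparatus stood among the brightest members. ATPC1, the gamma subunit of the chloroplast ATP synthase, had the highest wild-type signal of all members, 23480 and 18277 in the 2 arrays. It gave 7555 and 6776 in sicy-192 and 9950 and 10102 in the double mutant, so that both mutants lay below wild type with the double mutant the higher of them. Its differences from wild type were -1.53 and -1.05, each with a standard error of 0.16, and its gap of 0.49 was the widest that the rule admitted. CaS, a calcium-sensing protein of the thylakoid membrane, gave 13645 and 11944 in wild type, 5321 and 4660 in sicy-192, and 5702 and 5788 in the double mutant. The mutants' arrays lay close together at differences of -1.36 and -1.15 (± 0.15, SE). CCB3, which takes part in attaching a haem to cytochrome b6 during assembly of the b6f complex, was dimmer, with 526 and 767 in wild type. Its mutant arrays gave 173 and 269 in sicy-192 and 271 and 306 in the double mutant, differences of -1.49 and -1.10 (± 0.24, SE).

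Stroma and envelope proteins were represented as well. TRXF2, an f-type thioredoxin that helps to activate Calvin cycle enzymes in the light, gave 3210 and 2681 in wild type, 989 and 933 in sicy-192, and 1122 and 1191 in the double mutant. No mutant array exceeded 1191, at differences of -1.60 and -1.33 (± 0.14, SE). CHLI2, another gene for the I subunit of the magnesium chelatase of chlorophyll synthesis, gave 2517 and 2835 in wild type. It stood at 1208 and 1346 in sicy-192 and 1065 and 1342 in the double mutant, where the mutants' arrays overlapped (-1.06 and -1.15 ± 0.16, SE). LrgB, which exchanges glycolate and glycerate across the plastid envelope in photorespiration, had the largest difference of the members with a gene symbol. Its signals were 6613 and 6313 in wild type, 1400 and 1423 in sicy-192, and 1531 and 1573 in the double mutant, or -2.18 and -2.05 (± 0.13, SE). Within each genotype the LrgB arrays lay close together, and less than 25% of the wild-type signal was left in either mutant.

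A gene outside the plastid's own pathways with a difference almost as large was PYE (POPEYE), a bHLH transcription factor of the response to iron deficiency. PYE gave 539 and 430 in wild type, 125 and 137 in sicy-192, and 111 and 137 in the double mutant. The mutants overlapped, at -1.76 and -1.84 (± 0.20, SE). Of 18 iron-related genes listed after PYE had been seen among the members, only 3 have a named probe set. BHLH101, an iron-deficiency-induced bHLH gene, gave 153 and 200 in wild type, 14.9 and 3.06 in sicy-192, and 13.5 and 23.3 in the double mutant. It would have met the other conditions (-2.98, -2.49 and a gap of 0.49) but its mean level was under 6, and its mutant signals were near the added 16, so the size of its difference depends on that offset. ILR3, a bHLH protein that regulates iron homeostasis, had differences of -0.28 and -0.05 (limma adjusted p = 0.161 and 0.799). The list is too small and too selected for a statement on iron genes as a group. Most members that the gene table names only by locus were given no role here. Further genes of the iron response could therefore be among the members.

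Of the members with a symbol, EXPA8, EXLB1, SWEET16 and QQS are known for roles in the cell wall or in sugar and starch. EXPA8, an expansin, a family of proteins that loosen cell walls, gave 914 and 756 in wild type, 227 and 202 in sicy-192, and 253 and 236 in the double mutant (-1.88 and -1.70 ± 0.17, SE). The EXPA8 arrays of the 3 genotypes did not overlap. EXLB1, an expansin-like gene, gave 327 and 160 in wild type, 174 and 48.9 in sicy-192, and 87.5 and 68.1 in the double mutant. Here 1 sicy-192 array exceeded 1 wild-type array, and the differences of -1.15 and -1.40 carry a standard error of 0.47. SWEET16, a sugar transporter of the vacuole membrane, gave 210 and 130 in wild type, 85.8 and 60.3 in sicy-192, and 67.7 and 46.5 in the double mutant (-1.04 and -1.33 ± 0.30, SE). QQS, a short protein found only in Arabidopsis that affects starch content, gave 113 and 376 in wild type, 71.8 and 86.9 in sicy-192, and 59.6 and 61.4 in the double mutant. All 4 mutant QQS arrays were lower than either wild-type array, but those differed more than 3-fold from each other, and the standard error was 0.43 beside differences of -1.24 and -1.55.

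Further members with a symbol or an annotated name belonged to unrelated pathways. DEWAX (AT5G61590), an ERF-type transcription factor that represses wax synthesis, gave 914 and 1340 in wild type, 303 and 329 in sicy-192, and 468 and 343 in the double mutant (-1.76 and -1.43 ± 0.22, SE). Every DEWAX array of a mutant was below 500. FDH, the mitochondrial formate dehydrogenase, gave 1078 and 1064 in wild type, 561 and 433 in sicy-192, and 501 and 486 in the double mutant. With -1.10 and -1.09 (± 0.16, SE), FDH had a gap between the mutants of 0.002, the narrowest among the named members. Fes1B, an Arabidopsis relative of the yeast Hsp70 co-chaperone Fes1, gave 332 and 448 in wild type, 118 and 109 in sicy-192, and 110 and 85.2 in the double mutant (-1.63 and -1.83 ± 0.22, SE). The beta-glucosidase gene BGLU33 (-1.63 and -1.52 ± 0.27, SE) and the cytochrome P450 gene CYP71B35 (-1.34 and -1.44 ± 0.26, SE) were dim, with wild-type signals of at most 307 and 201. In Fes1B, BGLU33 and CYP71B35 the arrays of the mutants overlapped.

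**Figure D3:**
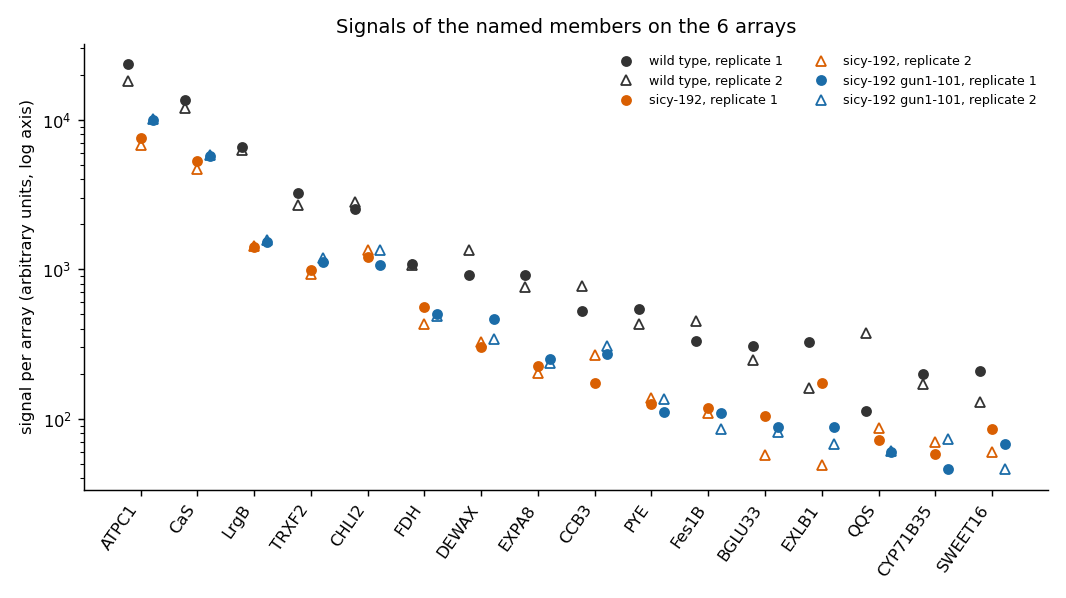
Signals (arbitrary units, log axis) of the 15 members with a gene symbol and of DEWAX on each array, with genotype by colour and replicate by marker shape. In all but EXLB1 both wild-type points lie above the 4 mutant points; ATPC1 spans 6776 to 23480 and SWEET16 46.5 to 210.

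The largest differences belonged to members that the gene table names only by locus, or not at all. AT5G05250 gave 923 and 1223 in wild type, 116 and 173 in sicy-192, and 209 and 191 in the double mutant (-2.77 and -2.32 ± 0.22, SE). AT2G25510 gave 3191 and 2166 in wild type, and its 4 mutant arrays lay between 455 and 672 (-2.38 and -2.22). AT5G01015 was similar, with 983 and 802 in wild type and 145 to 217 in the mutants (-2.22 and -2.24). AT1G47400 had differences of -2.04 and -2.25, and AT4G19530 of -2.10 and -1.93.

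Next in size were AT4G12980 (-1.87 and -1.80), AT3G56360 (-1.66 and -2.0), AT5G42070 (-1.94 and -1.71) and AT3G50685 (-1.94 and -1.49). AT3G50685 was also bright, with 9756 and 8113 in wild type and 2009 to 3358 across the mutant arrays. AT2G36630 (-1.84 and -1.49), AT1G20030 (-1.43 and -1.79) and AT4G03150 (-1.68 and -1.47) complete the 20 named genes with the lowest mean of both differences. Among the brightest named members, AT4G15545 (-1.0 and -1.05), AT2G25450 (-1.02 and -1.31), AT1G32220 (-1.37 and -1.05) and AT2G04039 (-1.49 and -1.26) had smaller ones. Over all 52 members named by locus alone, the differences ran from -2.77 to -1.0 in sicy-192 and from -2.32 to -1.04 in the double mutant.

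Unnamed probe sets held some of the most extreme values. The probe set 254250_at had the lowest mean of both differences of all members, with 1052 and 674 in wild type, 92.3 and 132 in sicy-192, and 84.6 and 69.6 in the double mutant (-2.76 and -3.21 ± 0.25, SE). Of the 10 members with the lowest mean differences 3 have no listed gene, and of the 10 brightest 6. The 41 unnamed members had a median wild-type signal of 1368, against 893 for the 67 named ones, and their median of both differences was -1.34, against -1.36.

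A run of neighbouring genes on chromosome 2 supplied 3 members. AT2G29290, AT2G29300 and AT2G29310 follow each other directly in the RefSeq gene order. AT2G29290 gave 3981 and 3250 in wild type, 700 and 582 in sicy-192, and 893 and 904 in the double mutant (-2.46 and -1.98 ± 0.16, SE). AT2G29310 gave 2188 and 1979 in wild type and 718 to 785 over the 4 mutant arrays (-1.39 and -1.48 ± 0.14, SE). AT2G29300 was dimmer, with 337 and 266 in wild type, 106 and 44.0 in sicy-192, and 138 and 69.4 in the double mutant (-1.89 and -1.46 ± 0.37, SE). Along this run the wild type exceeded every mutant array at each of the 3 loci.

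The loci on either side were no members. AT2G29320, next in order, was below wild type in both mutants too (-1.95 and -1.06), but the double mutant stood 0.5 or more above sicy-192, so it is no member. Beyond it, AT2G29340 had differences of 0.20 and 0.41. AT2G29370 gave 276 and 377 in wild type, 156 and 158 in sicy-192, and 1039 and 1516 in the double mutant, on opposite sides of wild type (-0.97 and 1.91). AT2G29260, on the other side, was higher in both mutants (1.3 and 1.07). Cross-hybridisation between neighbours of like sequence was not tested. Among the 67 members with a single gene no others adjoin, although AT3G56060 (-1.01 and -1.48) and AT3G56080 (-1.52 and -1.04) lie 2 steps apart.

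**Figure D4:**
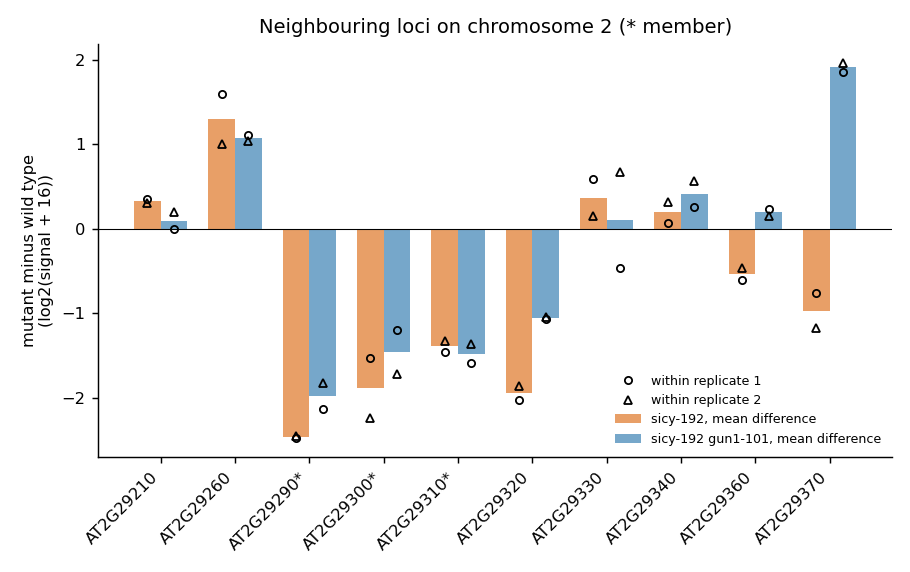
Bars give the mean difference from wild type in log2(signal + 16) for sicy-192 (orange) and sicy-192 gun1-101 (blue) at loci in chromosomal order that have a named probe set; open markers give the difference within each replicate number. The 3 members (asterisks) and AT2G29320 lie below 0 in both mutants, whereas AT2G29370 lies at -0.97 and 1.91.

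Named members were spread over all chromosomes. Chromosome 1 carried 10 of the 67 (14.9%) against 26.1% of the 8013 tested named genes, and chromosome 5 carried 19 (28.4%) against 23.8%. Chromosomes 2, 3 and 4 carried 13, 16 and 9 (19.4%, 23.9% and 13.4%), against 14.1%, 20.5% and 14.7%.

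The rule held the mutants within 0.5 of each other, and inside that window the double mutant was the higher genotype in 65 members and the lower in 44. The median gap was 0.05, and the arrays of the 2 mutant genotypes overlapped in 59 members. The rule kept the mutants close, and the share that overlapped among all tested probe sets was not counted, so nothing is read from that count. Bright members lay more often on the upper side: of the 31 with a wild-type signal above 2000, 23 were higher in the double mutant, with a median gap of 0.24. Of the 60 between 200 and 2000, 34 were higher (median 0.04), and of the 18 under 200, 8 were (median -0.01). Of the 6 members with a plastid role described above, a group formed after their values were seen, CCB3 (0.39), TRXF2 (0.26), CaS (0.21), LrgB (0.14) and ATPC1 lay above 0 and CHLI2 (-0.09) below. Of the other 9 members with a symbol, 3 lay above 0. The rule had limited the gap, and the same shares were not counted over all tested probe sets. The counts by brightness and by plastid role therefore only describe the members. In the fit, 2 members passed as higher in the double mutant than in sicy-192, 256015_at (0.48) and 259193_at (0.48), both unnamed, and 0 as lower. Of all tested probe sets 9.54% were called higher and 11.2% lower in that comparison, whose differences the rule had kept small in the members.

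**Figure D5:**
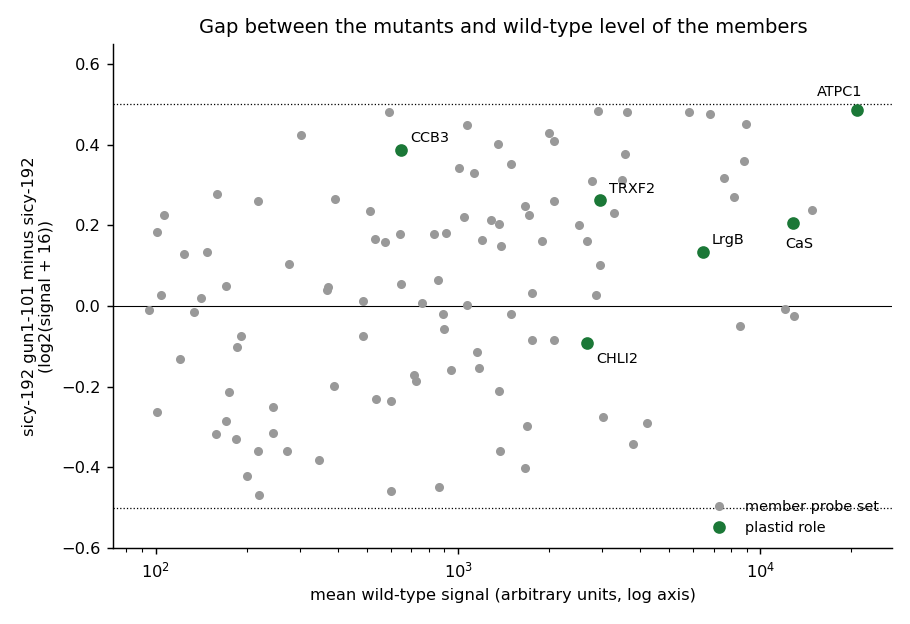
Each point is a member; the x axis is its mean wild-type signal (arbitrary units, log axis) and the y axis sicy-192 gun1-101 minus sicy-192 in log2(signal + 16), with the rule's limits dotted. The 6 members with a plastid role are green; 5 of them lie above 0, with ATPC1 at 0.49 next to the limit and CHLI2 at -0.09.

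Values on each side of the rule's limits were close. AT4G15545 was just inside at -1.0 in sicy-192, and 247717_at just outside, also at -1.0 after rounding. In the double mutant 251155_at was just inside and 266672_at just outside the limit of -1. ATPC1, with a gap of 0.49, was the last inside the limit on the gap, and 251815_at (0.50) the first outside. AT3G22060 had the lowest mean level admitted (6.0), and AT3G47180 (5.96) the highest left out. A floor at 6 left out 49 probe sets that met the other conditions.

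ATPC1, LrgB and CHLI2 belong to pathways for which gene lists had been drawn up. Of the 30 nuclear genes listed for photosystems and electron transport, 6 have a named probe set, ATPC1 among them. All 6 fell in sicy-192 (median -1.64) and all but PSAE-1 fell in the double mutant, 5 in all (median -0.92), while 4 were called higher in the double mutant than in sicy-192 and 0 lower. PSAE-1, a photosystem I subunit, had a double-mutant difference of -0.60 (limma adjusted p = 0.109), which passed without wild-type replicate 2 (-0.96, adjusted p = 0.024). PSB27, a photosystem II assembly protein, had differences from wild type of -2.03 and -1.25 (limma adjusted p = 6.55e-05 and 0.000722). PSBY (-1.93 and -1.13), PSAN (-1.75 and -0.74) and PSBW (-1.42 and -0.79), small photosystem subunits, also fell in both. The PSAN call in the double mutant was lost in 5 alternatives, among them quantile normalization (adjusted p = 0.0586) and leaving out wild-type replicate 1 (adjusted p = 0.0993).

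The photorespiration list has 6 of 19 genes on the array by name, with LrgB the only member. In sicy-192 5 fell and 1 rose (median -1.33), and in the double mutant 3 fell and 0 rose (median -0.55). Against sicy-192, 2 were called higher in the double mutant and 1 lower. HPR, the hydroxypyruvate reductase of peroxisomes, fell in sicy-192 (-2.09, adjusted p = 0.00117) but had a difference of -0.17 in the double mutant (adjusted p = 0.692, limma). AT1G32470 behaved alike (-1.37, then -0.36 with adjusted p = 0.111), whereas AT1G11860 (-1.29 and -0.88) and AT1G80380 (-1.21 and -0.74) fell in both. The gene that rose in sicy-192 was AT2G35120 (1.1), named after its values were seen. LrgB and HPR, both of photorespiration, had differences of -2.18 and -2.09 in sicy-192 and of -2.05 and -0.17 in the double mutant. Their standard errors were 0.13 and 0.30. The rule had kept the mutants close for LrgB, and HPR was named for its large sicy-192 difference. Nothing is therefore read from the contrast between LrgB and HPR.

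Of the 27 listed genes of tetrapyrrole and chlorophyll synthesis, 8 have a named probe set, including CHLI2. Against wild type 7 fell and 0 rose in sicy-192 (median -1.0), while 7 fell in the double mutant and 1, HEMA2, rose (median -0.71), with 4 called higher in the double mutant than in sicy-192. The protochlorophyllide reductase PORB had differences of -2.79 and -1.96 (limma adjusted p = 6.55e-05 and 0.000372). HEME1 (-1.71 and -0.68), CHLM (-1.54 and -0.90) and HEME2 (-0.93 and -0.73) fell in both. Without double mutant replicate 1 the double-mutant calls of HEME1 and HEME2 were lost (limma adjusted p = 0.112 and 0.0667), and that of HEME1 also without wild-type replicate 2 (adjusted p = 0.0745). GSA1 (-0.55 and -0.45) and HEMB1 (-0.52 and -0.45), also counted among the 7 and named after their values were seen, lost calls in several alternatives against wild type. For HEMB1 the adjusted p reached 0.168 in sicy-192 (without its replicate 1) and 0.202 in the double mutant (without its replicate 1). The double-mutant count of 7 was 4 without wild-type replicate 2 and 3 without double mutant replicate 1. HEMA2 (0.70) lost its call in 5 alternatives, with an adjusted p up to 0.121 without double mutant replicate 2. Among all tested probe sets, higher calls made up 13.8% (sicy-192) and 17.3% (double mutant), beside the lower calls of 9.21% and 12.8%. The lists were chosen with results of these arrays known, and CHLI2, LrgB and ATPC1 are counted in them although the rule fixed their direction.

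The other 15 lists contained 0 members. They include the antenna (3 named probe sets), the Calvin cycle (4), sugar-repressed genes (5) and sucrose and starch metabolism (5), and several lists had 0 named probe sets. The array table names few genes of any list, so the absence of members from a list says little about the pathway.

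The labelled tissue was checked where markers had a named probe set. The mesophyll genes RCA and PRK were bright on all arrays, with a summed signal of 42920 to 59261 in wild type, 15687 to 21437 in sicy-192 and 26798 to 35069 in the double mutant. Of the 8 markers of stomatal cells 3 could be read, summing to 271 to 385 in wild type, 292 to 326 in sicy-192 and 326 to 347 in the double mutant. Only 1 of these 3 was called against wild type in the fit. FMA, a factor of the last step to guard cells, gave 159 and 145 in wild type, 89.1 and 83.6 in sicy-192, and 79.1 and 72.0 in the double mutant, below wild type in both as the members are (-0.71 and -0.87, limma adjusted p = 0.0417 and 0.0154). MUTE, which acts before it, had differences of 1.01 and 0.99 (adjusted p = 0.166 and 0.159) and SPCH, which starts the lineage, of 0.04 and 0.40 (adjusted p = 0.919 and 0.232). CLV3, a shoot apex marker, had signals of 3.0 to 12.8. Markers of epidermis, vasculature, root and seed storage had 0 named probe sets. In RNA from whole cotyledons, fewer cells of a type and less RNA per cell cannot be told apart, and the part of cell composition in the members' values was not tested.

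Membership depended on single arrays and on the scaling. The rule found 166 probe sets without wild-type replicate 2, of which 102 were among the 109, and between 97 and 127 without any other single array, of which 83 to 89 were shared. With offsets of 1 and 64 it found 109 and 89 (96 and 77 shared), with quantile normalization 135 (95 shared) and with arrays centred on their medians 157 (97 shared). Both mutants remained below wild type for all 109 members under these offsets and scalings, and for 108 or 109 without any single array. The rule had required a difference of -1 or lower in both mutants, so this direction was largely set by it. After centring, the double mutant was the higher genotype in 79 members instead of 65.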

How the data were processed

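The authors deposited 1 linear intensity for each probe set on each array. The submitters' processing notes name GCOS and give no version of it. The algorithm that summarised each probe set and any genome build are not given in the sources used here. The deposited intensity columns have a 2% trimmed mean of 500.0 to 500.1, found from the values, so the authors had scaled the arrays. Each array was rescaled to 500, 16 was added and log2 taken, which understates differences of dim probe sets. The table has 22810 rows, 64 of them controls. A platform table of gene names and RefSeq (TAIR10.1) gave symbols, loci and gene order. It lists a single gene for 13513 probe sets, several for 503 and none for 8730, and 13436 matched a RefSeq locus.

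Probe sets above the 35th percentile of mean level (14785) were fitted with limma 3.58.1 in R 4.3.3 (lmFit, eBayes with a variance trend, two-sided, all 6 arrays), adjusted by Benjamini-Hochberg. Degrees of freedom were 3 residual and 6.27 prior, and the fit was tested on simulated data. With noise drawn from unmoderated standard deviations, that test fell short of its own limit. The noise was then changed to moderated ones, which met it. Standard errors are those of the fit. The 6 arrays limit the precision. The rule used every array, so members were not tested. Members and lists were chosen with earlier results of these data known. Named members are the 20 with the lowest mean of both differences, the 10 with the brightest wild-type signal, those in a list or sharing a family, and those at the rule's limits. From each list with a member, up to 4 other genes with the largest sicy-192 difference are named. The iron list, the group of plastid roles, members with a symbol, and the neighbours on chromosome 2 were added after values were seen. In lists a gene is read from its brightest probe set. Promoter motifs were not analysed here.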

Additional observations from a re-analysis of the deposited data

How the results depend on the processing

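Probe sets called against wild type numbered 3402 for sicy-192 and 4450 for its double with gun1-101, and 3060 between the mutants. Leaving out single arrays gave 2043 to 2968, 2307 to 4322 and 1457 to 3262. Each array, when left out, moved some count here or the rule's by over 1.5 times. Wild-type replicate 1, when left out, gave 2218 and 2925 calls against wild type. Leaving out replicate 1 or 2 of sicy-192 gave 2094 or 2043 calls against wild type and 1713 or 1997 between the mutants, and of the double mutant 2307 or 2491 and 1710 or 1457. With the replicate number as a block the counts were 5412, 6362 and 4917, and the rule's count stayed at 109. The block also called PSAE-1 (-0.60, limma adjusted p = 0.00178) and AT1G32470 (-0.36, adjusted p = 0.044) lower in the double mutant against wild type. Same-numbered arrays deviated together (r = 0.329 to 0.436 across probe sets), but no label says what a number marks. The share of higher calls, 60.0%, 57.5% and 46.1%, was 48.1%, 49.0% and 48.0% with quantile normalization and 31.4%, 45.1% and 59.8% after centring on medians. The rule's count of 109 ran from 97 to 166 without single arrays, the highest without wild-type replicate 2. The cause of these moves was not tested. For listed genes and list counts, 2536 alternative values kept their call, 83 lost and 20 gained one, 47 counts moved by over 1.5 times, and 0 reversed. Of the members, 247718_at had the largest standard error, 1.33.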
